A study of Mus musculus with 6 samples.

Results

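Natural killer (NK) cells are innate lymphocytes that kill infected or transformed cells without a rearranged antigen receptor. The 10 genes followed here mark these cells or arm them for killing, and were read in mouse lung RNA: Ncr1, Klrb1c, Klrd1, Klre1, Gzma, Gzmb, Prf1, Nkg7, Eomes and Tbx21. They were chosen by name, and all 10 were found among the 41388 genes of the count table. Lungs of adult mice with a deletion of the start of Zpbp2 (KO) were compared with lungs of control C57BL/6J mice (WT), with 3 libraries of each genotype, taken at ZT7 (Zeitgeber time, the hours since lights on). The deletion is held on a C57BL/6J background, is carried in every cell of the animal, and comes from a single mutant strain, with controls born in the same colony. The study dealt with links between the Zpbp2 locus and the daily clock.

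The 10 genes fall into 3 roles. Ncr1 (NKp46) is an activating receptor found on nearly all mouse NK cells. Klrb1c (NK1.1), Klrd1 (CD94) and Klre1 are lectin-like receptors encoded in the NK gene complex, and Klrd1 pairs with NKG2 proteins to read a class Ib major histocompatibility molecule. Perforin (Prf1) opens the membrane of the target cell, the proteases granzyme A and granzyme B (Gzma, Gzmb) enter and start cell death, and Nkg7 is a granule membrane protein needed for efficient release. Eomes and T-bet (Tbx21) are T-box transcription factors that drive NK cell maturation. Cytotoxic T cells also use the granule genes and both factors, and the lung holds a large NK population, much of it in its vessels.

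The libraries differed in several ways beside genotype. Total counts ranged from 59134950 to 71354388. KO2 and KO3 differed from each other by 1.71 to 1.93 times the variance that counting alone gives, at each of 3 count levels. In other pairs of a genotype the ratio was between 9.32 and 21 among genes with at least 2000 but fewer than 20000 counts in the pair. Among genes with at least 20 but fewer than 200 counts these other pairs were closer, from 1.86 (WT1 and WT2) to 3.84 (KO1 and KO3). Because KO2 and KO3 stayed close at every level, they entered as a single sample, summed in the fit and averaged in levels. Values after ± are SDs over n = 3 WT and n = 2 KO samples. WT3 and KO1 held transcripts of squamous epithelium, with 7 markers summing to 4432 and 8294 CPM (counts scaled to 1000000 per library) against 3.63 to 5.21 CPM in the other libraries. Erythroid transcripts stood apart in KO2 and KO3, at 18980 and 19720 CPM against 2397 to 5517 CPM elsewhere. The targeted gene Zpbp2 checked the labels, with 20, 15 and 7 counts in the WT libraries against 1, 0 and 0 in the KO libraries. The 5 lung epithelium markers, led by Scgb1a1, summed to 42010 to 45740 CPM in WT and to 59710 to 69170 CPM in KO.

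The promoters of the 3 genes with the largest differences are shown first, so that letters they share can be compared. RefSeq start sites on GRCm38.p6 were found for 9 of the 10 genes (not Klrd1). Each line gives the 250 bases before the start, read 5′ to 3′ on the strand of the gene. Capitals mark matches on either strand to 4 sets of letters: GTGTGA (T-box core), TGTGGT (RUNX), TTCNNNGAA (STAT) and AGGTCA (the core letters read by the clock repressor Nr1d1 and by ROR receptors).
Ncr1, chr7:4337474-4337723, plus strand: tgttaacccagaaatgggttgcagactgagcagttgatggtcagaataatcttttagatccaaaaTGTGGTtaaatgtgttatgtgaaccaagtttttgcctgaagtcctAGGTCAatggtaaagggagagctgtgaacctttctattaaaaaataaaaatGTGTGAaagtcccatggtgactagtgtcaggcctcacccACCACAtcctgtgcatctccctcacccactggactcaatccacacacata
Prf1, chr10:61297586-61297835, plus strand: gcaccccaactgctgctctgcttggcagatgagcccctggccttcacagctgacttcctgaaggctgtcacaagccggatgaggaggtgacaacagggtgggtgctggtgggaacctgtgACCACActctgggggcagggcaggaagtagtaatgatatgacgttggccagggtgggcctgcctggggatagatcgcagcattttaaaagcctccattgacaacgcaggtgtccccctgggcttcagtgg
Gzmb, chr14:56262335-56262584, minus strand: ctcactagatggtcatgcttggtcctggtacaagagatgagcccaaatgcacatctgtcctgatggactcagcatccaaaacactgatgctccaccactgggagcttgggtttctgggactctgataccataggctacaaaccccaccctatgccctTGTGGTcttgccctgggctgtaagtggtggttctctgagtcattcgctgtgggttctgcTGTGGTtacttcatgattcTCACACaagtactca

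The RUNX letters stood in 7 of the 9 promoters (Ncr1, Klrb1c, Klre1, Gzma, Gzmb, Prf1 and Nkg7) and in 14.0% of all 32536 promoter windows of the same length. The T-box core stood in Ncr1, Gzmb and Nkg7, and in 12.1% of all windows. The STAT letters were found in Nkg7 alone of the 9 (7.04% of all windows) and AGGTCA in Ncr1 alone (14.0%). The ETS letters CGGAAG and the clock E-box CACGTG were in 0 of the 9, against 13.7% and 6.04% of all windows. No match of one set overlapped a match of another in these promoters. These matches describe the sequence and do not show that a protein binds there.

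All 10 genes had lower estimates in KO than in WT lungs. The median log2 fold change was -0.35, against 0.02 over the 18660 genes tested, of which 47.8% had an estimate below 0. In 8 of the 10 genes every KO library lay below every WT library, which was so for 20.7% of all tested genes. With the edgeR quasi-likelihood test only Ncr1 fell at an adjusted p of at most 0.05, a call that 0.906% of tested genes had in this direction and 2.28% in either. Before adjustment 5 of the 10 (Ncr1, Prf1, Gzmb, Klrb1c and Gzma) were within 0.05, against 13.4% of all genes in the same direction. Other settings called between 0 and 5 of the 10, and the share of all genes called lower varied too. Ncr1 alone was called with no filter on low counts (0.697% of genes called lower), with the replicate block (3.43%) and without KO2 (0.865%) or KO3 (0.827%). Ncr1 and Prf1 were called with RLE scaling (0.954%), library size alone (1.01%) and at least 10 counts in every library (2.26%). With 6 separate libraries 4 of the 10 were called (9.07%), and with DESeq2 5 (10.7%). Without KO1, 0 of the 10 were called (0.0363%; 4 within 0.05 before adjustment, against 11.3% of all genes lower at that level). In whole lung RNA, fewer NK cells and less RNA in each cell cannot be told apart.

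**Figure D1:**
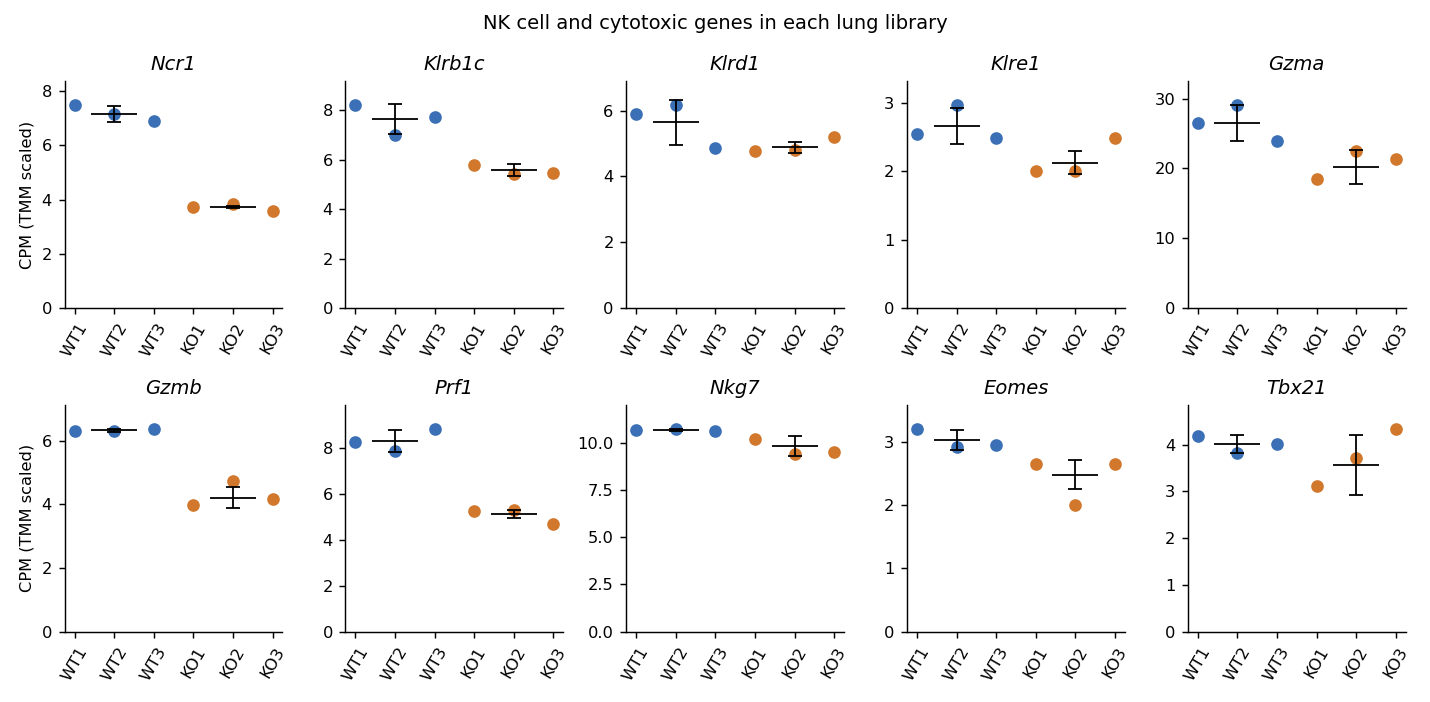
Level of each of the 10 genes in CPM on TMM-scaled libraries (vertical axis, from 0) in the 6 libraries (horizontal axis, WT in blue and KO in orange), with the mean and SD in black (n = 3 for WT, n = 2 for KO, where KO2 and KO3 are averaged). Ncr1, Prf1 and Gzmb show a wide gap between genotypes, whereas the KO libraries reach into the WT range for Klrd1 and Tbx21.

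Among the receptors, Ncr1 (ENSMUSG00000062524, chromosome 7, 4337724 to 4345164 of GRCm38, plus strand) was at 7.47, 7.14 and 6.89 CPM in WT1 to WT3 and at 3.74, 3.82 and 3.58 CPM in KO1 to KO3. The groups were far apart and each was tight. Means were 7.17 ± 0.29 CPM for WT and 3.72 ± 0.02 CPM for KO. The log2 fold change was -0.94 (SE 0.11, edgeR adjusted p 0.0446), so that KO lungs held 52.1% of the WT transcript level. The size of this difference was stable, from -1.04 to -0.91 over 15 alternatives, but the call was not: it was kept in 10 of them, in a range of adjusted p from 1.41e-12 to 0.189. It was lost without WT1, WT2 or WT3 (0.170, 0.189 and 0.123), without KO1 (0.0854) and with an offset for gene length and GC content (0.0877).

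The other receptors lie together on chromosome 6. Klrb1c (128778485 to 128789215, minus strand) was at 8.20, 6.997 and 7.71 CPM in WT and at 5.77, 5.402 and 5.45 CPM in KO, with no overlap between groups. Its log2 fold change was -0.44 (SE 0.12, edgeR adjusted p 0.0958) and did not pass. Its exons share 413 bases with Gm44511 on the same strand, a gene model that was not in the count table.

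Klre1 (129577905 to 129585827, plus strand) was at 2.54, 2.96 and 2.49 CPM in WT and 2.003, 2.0 and 2.48 CPM in KO. The groups met almost without a gap, at WT3 and KO3, and the log2 fold change was -0.32 (SE 0.16, adjusted p 0.259). Klrd1 (129591782 to 129598775, plus strand) was at 5.90, 6.16 and 4.85 CPM in WT and 4.77, 4.81 and 5.21 CPM in KO. WT3 lay within the KO range of Klrd1, and its log2 fold change of -0.20 (SE 0.15, adjusted p 0.434) was within the spread of the replicates.

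The granule genes separated the genotypes without overlap in all 4 cases (20.7% of all genes had every KO library below every WT library), but none passed the adjusted threshold. Prf1 (chromosome 10, 61297833 to 61304680, plus strand) was at 8.27, 7.90 and 8.84 CPM in WT and 5.26, 5.32 and 4.68 CPM in KO. Its log2 fold change of -0.69 (SE 0.11) had an edgeR adjusted p of 0.0501, at the threshold, and 6 of 15 alternatives called it. The estimate corresponds to 61.8% of the WT transcript level.

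Gzmb (chromosome 14, 56258838 to 56262260, minus strand) was at 6.31, 6.30 and 6.37 CPM in WT and 3.98, 4.73 and 4.16 CPM in KO. The WT libraries were nearly equal, at 6.33 ± 0.04 CPM, and the log2 fold change was -0.58 (SE 0.11, adjusted p 0.0610). Gzma (chromosome 13, 113093825 to 113100981, minus strand) was at 26.5, 29.0 and 23.9 CPM in WT and 18.5, 22.5 and 21.3 CPM in KO. Its log2 fold change was -0.38 (SE 0.12, adjusted p 0.130), and the gap between WT3 and KO2 was small.

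Nkg7 (chromosome 7, 43437073 to 43438249, plus strand) moved least of the granule genes. It was at 10.7, 10.7 and 10.6 CPM in WT and 10.2, 9.43 and 9.51 CPM in KO. Its difference of -0.12 on the log2 scale (SE 0.08, adjusted p 0.426) did not pass, and it was -0.31 with the length and GC offset.

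The T-box factors showed small differences. Eomes (chromosome 9, 118478212 to 118486132, plus strand) was at 3.197, 2.91 and 2.95 CPM in WT and 2.64, 2.0 and 2.64 CPM in KO, with a log2 fold change of -0.28 (SE 0.14, edgeR adjusted p 0.266). An antisense gene, Gm33460, shares 118 bases with its exons. Tbx21 was at 4.19, 3.82 and 4.02 CPM in WT and 3.12, 3.71 and 4.34 CPM in KO, so that KO3 was above every WT library. Its log2 fold change was -0.16 (SE 0.16, adjusted p 0.567) and lay between -0.33 and -0.0006 over the alternatives, with -0.0017 when KO1 was left out. Tbx21 (chromosome 11, 97098071 to 97115331, minus strand) lies 1.44 Mb from Zpbp2.

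**Figure D2:**
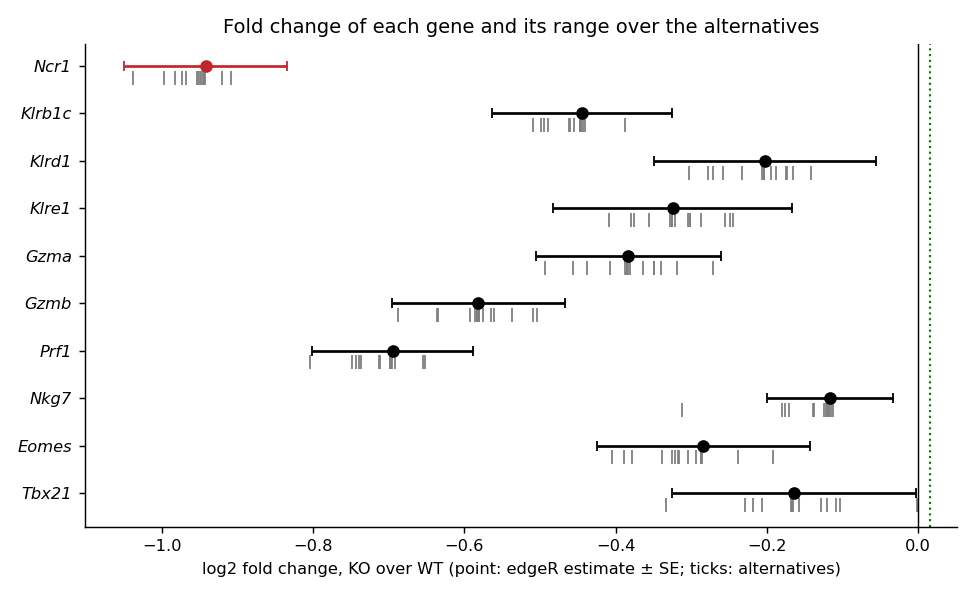
Log2 fold change of each gene in KO over WT (horizontal axis; point and bar, edgeR estimate ± SE, red where the adjusted p is at most 0.05; grey ticks, the 15 alternatives; dotted line, median of all tested genes at 0.02). Every point lies left of 0, from -0.94 for Ncr1 to -0.12 for Nkg7, and only Ncr1 is red.

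Ratios between pairs of the genes, some set between large and small differences, are given as a description. The count ratio of Ncr1 to Nkg7 was 0.699, 0.665 and 0.648 in WT1 to WT3 and 0.367, 0.405 and 0.377 in KO1 to KO3. The ratio of Ncr1 to Klrd1 averaged 1.28 ± 0.13 in WT and 0.762 ± 0.030 in KO. Prf1 over Nkg7 went from 0.780 ± 0.049 to 0.522 ± 0.008, with 0.516, 0.564 and 0.492 in KO1 to KO3. These 3 ratios set a gene with a large difference over one with a small difference, so a lower ratio in KO was built in by the choice. In each of them every KO library was below every WT library. Gzma over Gzmb was 4.18 ± 0.43 in WT and 4.80 ± 0.21 in KO. For this ratio every KO library was above every WT library, by a narrow gap (4.606 in WT2, 4.648 in KO1). Eomes over Tbx21 overlapped between genotypes. These ratios compare genes within a library and carry no test.

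Levels of different genes were compared per kilobase of exon. In WT, Gzma led at 26.3 ± 2.5 CPM per kb, followed by Nkg7 at 11.7 ± 0.06. Ncr1 (4.65 ± 0.19), Gzmb (4.41 ± 0.03) and Klrd1 (4.40 ± 0.54) came next, and Klrd1 was not apart from either of the others. Prf1 (3.23 ± 0.18), Klrb1c (2.58 ± 0.20) and Tbx21 (1.61 ± 0.08) followed, each below the range of the one before. Klre1 (0.762 ± 0.075) and Eomes (0.727 ± 0.037) closed the order with overlapping ranges. In KO, Gzma and Nkg7 again led, at 20.1 ± 2.4 and 10.8 ± 0.56 CPM per kb, and Ncr1, at 2.42 ± 0.02, stood below Klrd1 (3.82 ± 0.13) and Gzmb (2.93 ± 0.23).

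Summed over the 10 genes, the level was 83.2, 83.9 and 78.6 CPM in WT1 to WT3 and 59.9, 63.7 and 63.4 CPM in KO1 to KO3. As a median of log2 ratios to the WT mean, the KO libraries were at -0.41, -0.42 and -0.25 and the WT libraries between -0.02 and 0.03. KO2 and KO3, both high in erythroid transcripts, thus differed by more than KO1 and KO2 did. With WT3 and KO1 both left out the median log2 fold change was -0.37, and Ncr1 and Prf1 were called, in a fit where 5.88% of genes were called lower. That fit set 2 WT samples against the single merged KO sample, so the spread came from WT alone.

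**Figure D3:**
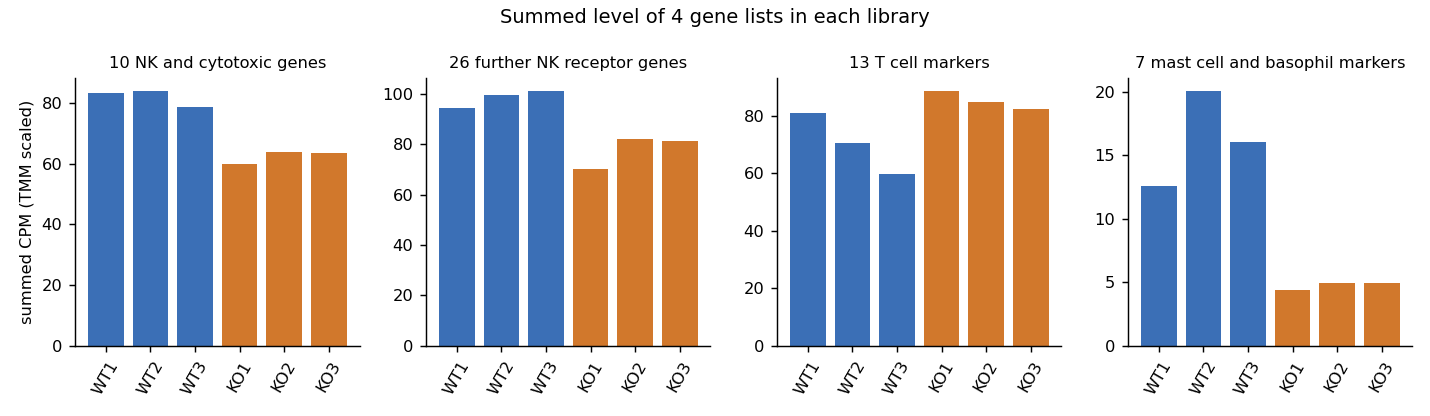
Summed level in CPM (vertical axis, from 0) of 4 gene lists in each library (WT in blue, KO in orange). The 10 genes and the further NK receptors are lower in all KO libraries, the T cell markers are not (82.4 to 88.5 CPM in KO, 59.8 to 81.0 CPM in WT), and the mast cell and basophil markers are at 4.36 to 4.95 CPM in KO against 12.6 to 20.1 CPM in WT.

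Further genes of NK biology were read from the same fit, in 7 lists. Of 106 tested genes in these lists 5 fell and 1 rose at an adjusted p of at most 0.05, where 0.906% of all genes were called lower and 1.38% higher. The list of other NK receptors had 20 of 24 estimates below 0 (47.8% of all genes), a median log2 fold change of -0.54, and 15 genes whose KO libraries were all below WT (20.7% of all genes). None of these receptors passed with edgeR, while 13 were lower at 0.05 before adjustment (13.4% of all genes). Klrc1 (NKG2A), the inhibitory partner of Klrd1, had a WT level of 0.954 ± 0.071 CPM and a KO level of 0.4996 ± 0.058 CPM (edgeR adjusted p 0.0671). Klrk1 (NKG2D), the activating receptor for stress ligands, went from 10.1 ± 0.81 to 6.93 ± 0.65 CPM (adjusted p 0.0744). Klrb1b, a relative of Klrb1c chosen after its values were seen, was at 0.04 on the log2 scale (adjusted p 0.883). Reads of the Klra and Klrc families can be shared with close copies, so their values are less certain.

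Cytokine receptors that NK cells depend on held 2 of the calls. Il2rb, the receptor chain through which interleukin 15 keeps NK cells alive, was at 21.1, 20.98 and 22.1 CPM in WT and 14.3, 13.5 and 14.2 CPM in KO. It fell by a log2 fold change of -0.60 (SE 0.07, edgeR adjusted p 0.0446). Il12rb2, a chain of the interleukin 12 receptor, was at 2.56, 2.89 and 2.79 CPM in WT and 1.38, 1.16 and 1.61 CPM in KO, and fell with -0.99 (SE 0.14, adjusted p 0.0474). Their calls were kept in 10 and 7 of 15 alternatives. The cytokine Il15 itself was at -0.10 on the log2 scale (adjusted p 0.578), a value looked up after those of its receptor. The list as a whole had 11 of 17 estimates below 0 and a median of -0.19, and its widest estimate upward was Ccl3, a chemokine that myeloid cells also make (1.88, SE 0.45, adjusted p 0.0805, also chosen after its values were seen).

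Of the trafficking and adhesion genes 11 of 12 had estimates below 0, with a median of -0.27. The integrin chains Itgal (CD11a) and Itga1 (CD49a) fell, with log2 fold changes of -0.46 (SE 0.05) and -0.59 (SE 0.08), both at an edgeR adjusted p of 0.0446. Itga1 is also made by many stromal cells of the lung, and its log2 fold change was -0.27 with the length and GC offset. Of 13 lineage regulators 7 had estimates below 0 (median -0.14). Zeb2, a repressor needed for terminal NK maturation that macrophages also express, fell by 0.40 on the log2 scale (SE 0.05, adjusted p 0.0446), and was at -0.05 with the length and GC offset. Klf2 levels were 231 ± 30.7 CPM in the WT and 342 ± 35.04 CPM in the KO samples (adjusted p 0.0721), and is strongly expressed in endothelium.

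The remaining lists had medians near 0. Granule and killing genes that many cells use had 7 of 16 estimates below 0 and a median of 0.00. Among them Rab27a, which docks granules, was at 0.28 (SE 0.06, edgeR adjusted p 0.0694) and the death ligand Tnfsf10 at -0.27 (SE 0.08, adjusted p 0.122). Adaptors and signalling genes had 7 of 14 below 0 and a median of 0.01, with Plcg2 at -0.33 (SE 0.06, adjusted p 0.0537) and Syk at -0.36 (SE 0.08, adjusted p 0.0725), both also used by B cells and myeloid cells. Ligands of NK receptors had 6 of 10 below 0 and a median of -0.05. Nectin2, a ligand of Cd226 and Tigit, rose by 0.28 (SE 0.04, adjusted p 0.0487), a call kept in 4 of 15 alternatives, and Ulbp1, a ligand of Klrk1, was at -0.59 (SE 0.24, adjusted p 0.200), or -0.31 without KO1. With the length and GC offset Nectin2 was at 0.18, Klf2 at 0.30, Klrk1 at -0.36 and Tnfsf10 at -0.18 on the log2 scale.

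**Figure D4:**
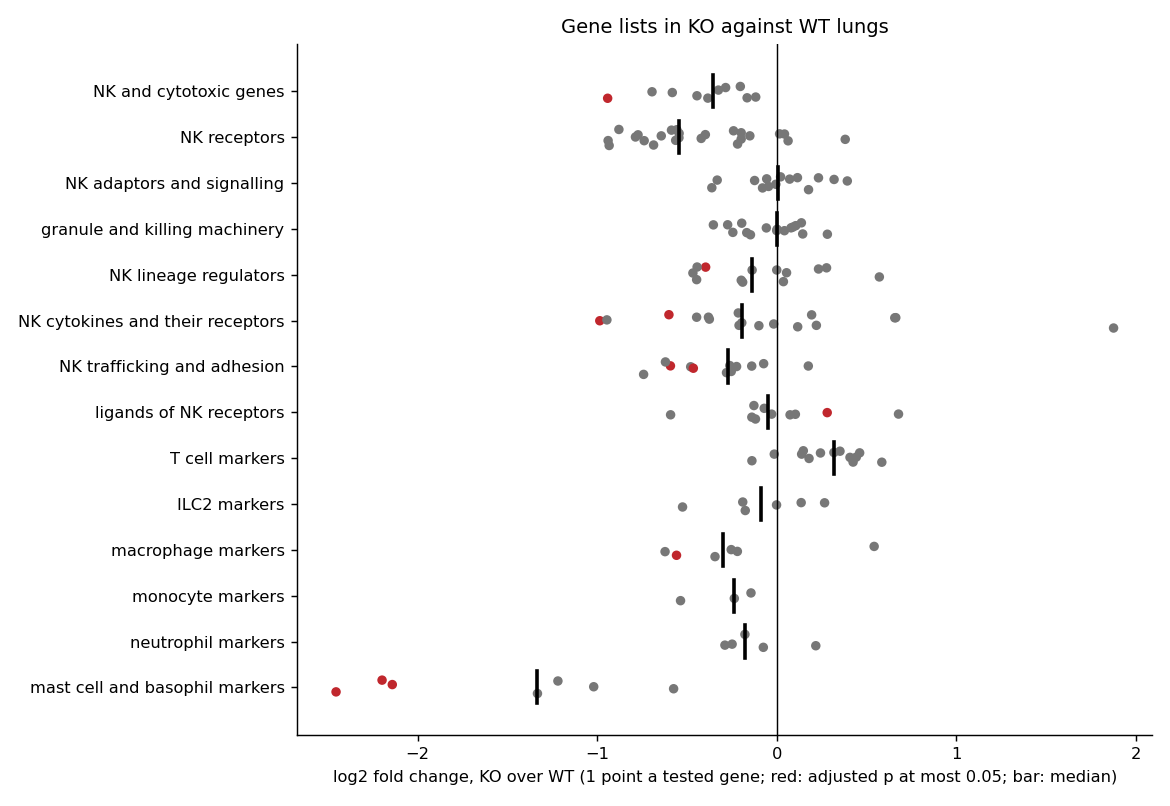
Log2 fold change in KO over WT (horizontal axis) of each tested gene in the 10 NK and cytotoxic genes, the 7 lists of related genes and 6 marker lists of other immune cells (1 row a list; red, adjusted p at most 0.05; black bar, median). The bars of the NK receptors (-0.54), the 10 genes (-0.35), the macrophage markers (-0.30) and the trafficking genes (-0.27) lie left of 0, that of the T cell markers (0.32) lies right of 0, and that of the mast cell and basophil markers (-1.33) far left.

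Markers of other immune cells were read beside these results, and their part in them was not tested. Among T cell markers Lat led in CPM, which is not scaled for gene length. Per kb of exon Trbc2 led, at 6.86 CPM in WT and 9.43 in KO, against 3.27 and 4.38 for Lat. The T cell markers had 11 of 13 estimates above 0 and a median of 0.32. Of them edgeR called 0 (2 were within 0.05 before adjustment, both higher, as were 13.9% of all genes). Their sum was 59.8 to 81.0 CPM in WT and 82.4 to 88.5 CPM in KO. All 7 mast cell and basophil markers had estimates below 0 (median -1.33), and Cpa3, Mcpt4 and Tpsb2, named after their values were seen, fell, with log2 fold changes of -2.46, -2.20 and -2.14 (edgeR adjusted p from 0.0446 to 0.0474, where 0.906% of all genes were called lower). Cma1, with the highest CPM of the mast cell and basophil markers, was at -1.33 (SE 0.25, edgeR adjusted p 0.0578). Mast cells can also express Gzmb.

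Leading markers are named here by CPM, not scaled for gene length. Macrophage markers, led by Chil3, had 5 of 6 estimates below 0 (median -0.30, with Mrc1 called lower). Monocyte markers, led by Ccr2 in KO and with F13a1 and Ccr2 not apart in WT, had 3 of 3 below 0 (-0.24). Neutrophil markers, led by S100a9, had 4 of 5 below 0 (-0.18). ILC2 markers (group 2 innate lymphoid cells), led by Rora, had 4 of 6 below 0 (-0.09) and gamma delta T cell markers, led by Tcrg-C1, 2 of 3 (-0.07). Per kb of exon Gata3 was above Rora in KO (4.12 against 3.41 CPM), and in WT their ranges overlapped (3.43 against 3.90). No marker of these lists was at 0 in every library. Estimates below 0 were the majority in several leukocyte lists besides the NK genes. Erythroid and squamous markers had medians of 1.78 and 1.39, with high levels in the libraries named above. Lung epithelium markers had a median of 0.49, and edgeR called 3 of 5 higher, where 1.38% of all genes were called higher.

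The genes most like the 10 in pattern over the 5 samples were Map3k1, Ghr, Klra9, Plagl2 and Fam49a, with Pearson correlations to their mean standardized level of 0.9999 to 0.998. This is a description over 5 samples, and 1478 of 14398 genes compared reached 0.9. Klra9, an NK receptor, was the only one of these 5 on the lists above, with 1.74 ± 0.08 CPM for WT and 1.18 ± 0.07 CPM for KO. Ghr, the growth hormone receptor, fell from 146 ± 8.14 to 99.5 ± 3.11 CPM (edgeR adjusted p 0.0446).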

How the data were processed

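Lung RNA was sequenced in 6 libraries, which the study's methods assign to 3 WT and 3 KO mice. KO2 and KO3 differed by little more than counting noise, so p-values measure the spread between these libraries, which may in part be technical. The authors trimmed reads (Trimmomatic 0.36), aligned them to GRCm38 (mm10) with STAR 2.5.3a and counted reads per gene with HTSeq 0.6.0, with versions, and Picard 2.9.0, as named in the submitters' processing notes. The deposited values are raw counts with no normalization. Whether counting used the strand is not given in the sources used here, so genes that overlap others are uncertain. Groups and replicate numbers came from the sample titles.

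The test was edgeR 4.0.16 under R 4.3.3 (filterByExpr, TMM, glmQLFit and glmQLFTest, two-sided, KO against WT), with Benjamini-Hochberg adjustment over 18660 genes and a call at an adjusted p of at most 0.05. KO2 and KO3 were summed. Each SE is the size of the log2 fold change divided by the square root of F. CPM values are counts per 1000000 of the TMM-scaled library. Positions and exon lengths are from GENCODE M21 (GRCm38), which holds 97.3% of the gene identifiers.

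The 10 genes, the lists and the choice to merge KO2 and KO3 were made with earlier results of these data known. One marker list is not reported here. Sh2d1b1 and Trdc were not matched in the table, and 3 were matched by identifier. Named are the 10 genes, the called genes of each related list (where fewer than 2 were called, the 2 with the smallest p), the markers with the highest mean CPM, and the 5 genes most alike in pattern. The fit was tested on simulated data. Alternatives were other scalings and filters, 6 separate libraries with and without the replicate block, DESeq2 1.42.0, a spline offset for length and GC content, each library left out and, chosen after seeing the data, WT3 and KO1 both left out.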

Additional observations from a re-analysis of the deposited data

How the results depend on the processing

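All 10 genes kept estimates below 0 under the 15 alternatives, from -1.04 (Ncr1, length and GC offset) to -0.0006 (Tbx21, WT3 and KO1 both left out), and 0 were higher in KO. The number of the 10 genes called was 1. It was 2 with RLE scaling, with library size alone, with at least 10 counts in every library and with WT3 and KO1 both left out (each time Ncr1 and Prf1), 4 with the 6 libraries kept separate (Ncr1, Klrb1c, Gzmb and Prf1, where 9.07% of genes were called lower) and 5 with DESeq2 (10.7%). It was 0 with the length and GC offset, where edgeR called 0 of 18516 genes and 6 of the 10 had an unadjusted p of at most 0.05 (9.04% of all genes were lower at that p). With 1 library left out it ranged from 0 to 1: it was 0 without WT1, WT2 or WT3 (4, 4 and 5 of the 10 at an unadjusted p of at most 0.05, against 9.75%, 9.10% and 11.4% of all genes lower; edgeR called 0 genes in all) and without KO1 (4, against 11.3%; 17 genes in all). The fits without KO1, and without both WT3 and KO1, hold a lone merged KO sample that is assumed to vary like the WT samples. Related genes called were 6, and 26 with separate libraries (of all genes, 3402 of 18014 were called), 27 with DESeq2 (3889 of 17744), 14 with WT3 and KO1 left out (2256 of 18971), 0 with the offset, and 0 to 5 with 1 library left out. The median log2 fold change of -0.35 became -0.41 with library size alone and -0.39 with the offset, and ranged from -0.41 to -0.32 with 1 library left out. The causes of these shifts were not tested.

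Deviations of same-numbered libraries from the mean of their genotype correlated at -0.48, 0.56 and -0.65, with no common direction. Those of WT3 and KO1, both with squamous transcripts, correlated at 0.736. Such values cannot show whether same-numbered libraries were handled together. With the replicate block, on separate libraries, 1 of the 10 genes and 5 related genes were called and the median was -0.34.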
